A study of Homo sapiens and Mus musculus with 29 samples.

Results

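The 10 genes described here are *TFF1*, *TFF2*, *TFF3*, *AGR2*, *AGR3*, *REG4*, *SPINK1*, *SPINK4*, *GKN1* and *CTSE*, which were picked by symbol from the 58719 genes of the HPAF-II expression table as secretory markers of the classical subtype of pancreatic ductal adenocarcinoma (PDAC). HPAF-II, an established line of human PDAC cells, belongs to that subtype. The cells were injected into the pancreas of NSG mice, which lack functional lymphocytes, and RNA was sequenced from 15 tumor libraries and 6 metastasis libraries of 15 mice. All groups are labeled as CRISPR lines. Control tumors (3 mice) carried Cas-9 and an empty vector, tumors labeled HNF4G-KO (4 mice) a CRISPR knockout of *HNF4G* and the empty vector, tumors labeled FOXA1-OE (3 mice) Cas-9 and a lentiviral *FOXA1* vector, and tumors labeled HNF4G-KO + FOXA1-OE (5 tumors of 4 mice, with tumors 2 and 3 from the same mouse) both changes. Metastases came from 2 HNF4G-KO mice (peritoneum) and from 3 HNF4G-KO + FOXA1-OE mice. Of the latter, metastasis 1 (spleen) and metastasis 2 share a mouse, metastases 2 and 3 are labeled "peri mets in fat", and metastasis 4 came from the peritoneum. The knockout cells were a pool of 3 clones with heterozygous frameshifts.

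The labels were checked before the genes were compared. *HNF4G* mRNA was between 5.72 and 8.42 RPKM in tumors labeled HNF4G-KO and between 2.48 and 3.47 RPKM in controls. It was thus higher, not lower, in these HNF4G-KO tumors. Among tumors labeled HNF4G-KO + FOXA1-OE, tumor 5 was below all controls (1.69 RPKM). The other tumors of that label were above all controls, up to 7.09 RPKM in tumor 1. HNF4G-KO metastasis 2 (3.01 RPKM) and HNF4G-KO + FOXA1-OE metastasis 1 (3.355 RPKM) lay within the control range, and the other metastases above it. Per the methods of the study, Sanger sequencing was used to check the frameshifts of the clones. The mRNA level of the whole gene tests neither these frameshifts nor the amount of HNF4G protein, and HNF4G-KO is used below as a label only. RPKM is a number of reads scaled to the length of the gene and to the depth of the library. *FOXA1* was between 0.52 and 0.93 RPKM in controls, at 6.32 and 8.18 RPKM in FOXA1-OE tumors 1 and 2, and at 0.76 RPKM in FOXA1-OE tumor 3. In tumors labeled HNF4G-KO + FOXA1-OE it was between 4.65 and 23.2 RPKM. Of their 4 metastases, metastasis 2 had 17.9 RPKM and the others between 0.53 and 1.55 RPKM. All 9 epithelial markers (*EPCAM*, *KRT19* and others) were above 1 RPKM in all 21 libraries. Depth was between 33.1 and 69.5 M reads.

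These genes encode products that mucus-secreting epithelium of the gut makes or needs. The trefoil factors are small, disulfide-rich peptides that are secreted with mucins and help to repair the mucosa, *TFF1* from surface cells and *TFF2* from gland cells of the stomach, and *TFF3* from intestinal goblet cells. *AGR2* and *AGR3* encode protein disulfide isomerases of the endoplasmic reticulum (ER), and AGR2 is needed for the processing of mucins. *REG4* encodes a secreted C-type lectin, *SPINK1* and *SPINK4* Kazal-type inhibitors (SPINK1 of trypsin, SPINK4 of goblet cells), *GKN1* a secreted protein of gastric surface cells, and *CTSE* the aspartic protease cathepsin E. Gastric-type secretory genes mark classical PDAC, while the basal-like subtype has lost much of this program.

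The 3 trefoil genes form a cluster of 54.9 kb on the minus strand of chromosome 21 (GRCh38), with *TFF1* (ENSG00000160182.2) at chr21:42362282-42366535, *TFF2* (ENSG00000160181.8) at chr21:42346357-42350997 and *TFF3* (ENSG00000160180.15) at chr21:42311667-42315409. *AGR2* (ENSG00000106541.11, chr7:16791811-16833433) and *AGR3* (ENSG00000173467.8, chr7:16859412-16881987) are also neighbors on the minus strand, 26.0 kb apart. The other genes are single, *REG4* (ENSG00000134193.14) at chr1:119794017-119811580, *CTSE* (ENSG00000196188.10) at chr1:206008535-206023909, *SPINK1* (ENSG00000164266.10) at chr5:147824572-147831671, *SPINK4* (ENSG00000122711.8) at chr9:33218365-33248567 and *GKN1* (ENSG00000169605.5) at chr2:68974573-68980980. All are annotated as protein coding.

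RefSeq promoters (GRCh38.p14) were found for 7 of the 10 genes, without *TFF1*, *TFF2* and *TFF3*. The 250 bases before the RefSeq start are shown for the 5 matched genes that rose in at least 1 comparison below, read 5′ to 3′ on the strand of the gene, which is the minus strand for each. Capitals mark matches, on either strand, to 5 short motifs. The letters TGTTTAC were searched as a form of the motif bound by FOXA proteins, and TGTTTGC as another. A form of the HNF4 motif was searched as CAAAGTCC. The motif of GATA factors was searched as AGATAA, and the element at which transcription of many genes is placed, the TATA box, as TATAAA.
AGR2 (chr7:16805000-16805249): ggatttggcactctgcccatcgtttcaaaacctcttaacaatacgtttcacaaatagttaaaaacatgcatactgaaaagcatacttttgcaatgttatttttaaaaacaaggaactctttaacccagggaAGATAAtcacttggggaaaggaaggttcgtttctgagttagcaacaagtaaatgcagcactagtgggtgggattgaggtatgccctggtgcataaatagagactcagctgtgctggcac
AGR3 (chr7:16881984-16882233): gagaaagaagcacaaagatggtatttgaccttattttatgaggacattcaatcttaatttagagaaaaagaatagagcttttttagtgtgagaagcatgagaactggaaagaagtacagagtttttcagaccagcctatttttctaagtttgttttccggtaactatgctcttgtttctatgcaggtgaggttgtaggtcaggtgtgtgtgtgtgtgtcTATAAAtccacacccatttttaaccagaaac
REG4 (chr1:119811461-119811710): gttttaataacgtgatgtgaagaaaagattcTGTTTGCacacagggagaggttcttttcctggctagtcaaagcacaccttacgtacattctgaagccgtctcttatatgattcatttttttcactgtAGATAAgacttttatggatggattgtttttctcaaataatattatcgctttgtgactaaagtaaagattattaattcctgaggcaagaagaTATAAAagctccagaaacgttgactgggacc
SPINK1 (chr5:147831672-147831921): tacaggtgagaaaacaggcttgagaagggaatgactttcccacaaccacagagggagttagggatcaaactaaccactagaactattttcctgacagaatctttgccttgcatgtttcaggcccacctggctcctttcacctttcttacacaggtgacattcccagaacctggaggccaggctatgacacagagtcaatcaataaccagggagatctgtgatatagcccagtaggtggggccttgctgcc
CTSE (chr1:206023896-206024145): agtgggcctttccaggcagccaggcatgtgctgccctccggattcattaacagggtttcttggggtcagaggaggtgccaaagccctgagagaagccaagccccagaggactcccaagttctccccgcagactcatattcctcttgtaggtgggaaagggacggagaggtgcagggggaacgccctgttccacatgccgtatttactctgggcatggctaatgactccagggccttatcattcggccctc

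In these windows, *REG4* held TGTTTGC at 219 bases before its start, AGATAA at 122 and TATAAA at 31. *AGR2* held AGATAA at 119 bases and *AGR3* TATAAA at 31 bases before the start, and the windows of *SPINK1* and *CTSE* held no match. Of all 35116 promoters in the table, 3.23% held TGTTTGC, 2.98% TGTTTAC, 1.02% CAAAGTCC, 9.17% AGATAA and 10.7% TATAAA. No window of the 7 genes held TGTTTAC or CAAAGTCC, which says only that these letters are not there. GC content was 36.4% in *AGR3*, 35.6% in *REG4*, 40.4% in *AGR2*, 48.8% in *SPINK1* and 57.6% in *CTSE*, against a median of 58.0% over all promoters.

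Levels of these genes differed widely. *AGR2* was the highest, between 391 and 950 RPKM in the 21 libraries, and its rank among all genes was 41 at the median library and 27 at best. *TFF1* (median rank 128) and *REG4* (217) followed, and *SPINK1* (5855) and *TFF3* (4143) were far lower. *GKN1* was listed at 0 in all 21 libraries, and *SPINK4* was listed at 0 in 3 of them and reached 9.85 RPKM at most. *AGR2* was also the steadiest, with the highest library 2.43-fold above the lowest. By the same measure *CTSE* spanned 28.7-fold, *SPINK1* 31.6-fold, *AGR3* 38.7-fold, *TFF2* 69.7-fold, *TFF1* 133-fold, *TFF3* 158-fold and *REG4* 205-fold. In 6 of these 8 genes, *REG4* and *SPINK1* being the exceptions, the lowest library was tumor 3 labeled HNF4G-KO + FOXA1-OE.

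**Figure D1:**
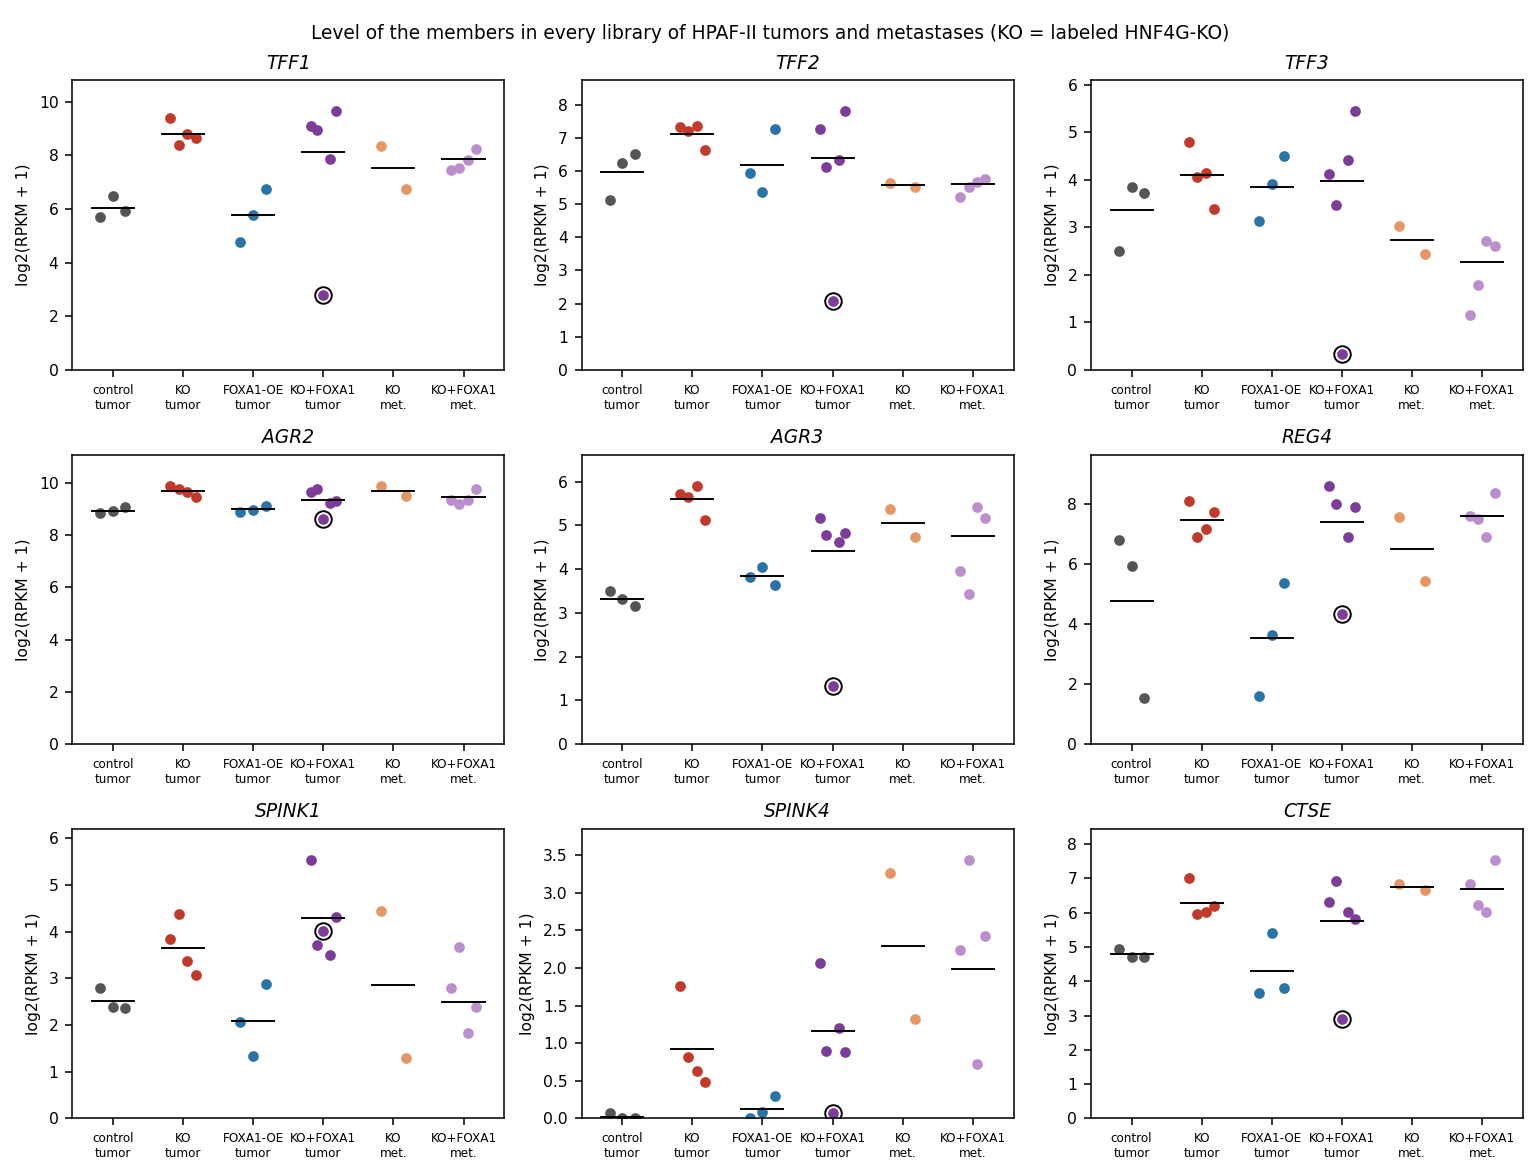
Level of 9 of the genes in each library, as log2(RPKM + 1), in the 4 groups of tumors and the 2 groups of metastases. Points are libraries, bars are means over mice, and the ring marks tumor 3 labeled HNF4G-KO + FOXA1-OE, which lies at the bottom of its group for all but *SPINK1*. *GKN1*, listed at 0 throughout, is not drawn.

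The first comparison asked whether these genes differ between tumors labeled HNF4G-KO and control. Genes were tested on log2(RPKM + 1) with limma in a single fit of the 4 tumor groups, adjusted over the 14269 genes whose mean reached 1 RPKM, which left out *SPINK4* and *GKN1*. *TFF1*, *AGR2*, *AGR3* and *CTSE* rose in tumors labeled HNF4G-KO against control, 4 of the 8 genes tested, where 6.18% of all genes were called higher. The groups did not overlap, with the HNF4G-KO tumors higher, for 7 of the 8 genes, against 25.1% of all genes. The median log2 fold change of the 8 genes was 1.33, and that of all genes 0.01. The genes were chosen with earlier results of these data known. The shares of them given here and below are therefore descriptions, not tests of the set.

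*TFF1* was at 51.2, 88.9 and 59.7 RPKM in control tumors 1 to 3 and at 663, 336, 444 and 399 RPKM in HNF4G-KO tumors 1 to 4. Every HNF4G-KO tumor was thus far above every control. The log2 fold change was 2.76 (SE 0.70, adjusted p = 0.0247), a 6.79-fold rise of RPKM + 1. *TFF2* was at 33.6, 74.8 and 90.7 RPKM in controls and at 159, 145, 162 and 97.5 RPKM in HNF4G-KO tumors. These groups were also apart, by a narrow gap between HNF4G-KO tumor 4 and control tumor 3, but the change of 1.16 (SE 0.71, adjusted p = 0.286) did not pass the test. It passed (SE 0.32, adjusted p = 0.0198) in a fit of these 2 groups alone. For *TFF3*, with 4.68, 13.5 and 12.3 RPKM in controls and 26.9, 15.6, 16.8 and 9.42 RPKM in HNF4G-KO tumors, the groups overlapped (log2 fold change 0.73, SE 0.65, adjusted p = 0.468).

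The 2 isomerase genes differed in size but not in direction. *AGR3* had the smallest adjusted p of the 8 genes, with 10.3, 8.94 and 7.95 RPKM in controls and 51.7, 49.3, 59.1 and 33.8 RPKM in HNF4G-KO tumors. Both groups were tight, and the log2 fold change was 2.28 (SE 0.38, adjusted p = 0.00387), or 4.85-fold. *AGR2* went from 457, 478 and 533 RPKM in controls to 936, 857, 791 and 709 RPKM in HNF4G-KO tumors. Its change was 0.74 (SE 0.18, adjusted p = 0.0218), or 1.68-fold, on a level among the highest of the transcriptome.

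*REG4* varied most among controls, at 110, 59.7 and 1.89 RPKM in tumors 1 to 3. In HNF4G-KO tumors it was at 274, 118, 143 and 209 RPKM, all above the highest control. With that spread a log2 fold change of 2.72 (SE 1.09) had an adjusted p of 0.112. *CTSE* was at 29.98, 25.3 and 24.9 RPKM in controls and at 128, 60.7, 63.7 and 72.3 RPKM in HNF4G-KO tumors. It rose by 1.503 on the log2 scale (SE 0.42, adjusted p = 0.0340), or 2.83-fold.

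The inhibitor genes were low. *SPINK1* was at 5.92, 4.23 and 4.11 RPKM in controls and at 13.3, 19.6, 9.33 and 7.36 RPKM in HNF4G-KO tumors, which did not overlap (log2 fold change 1.15, SE 0.46, adjusted p = 0.111, and 0.0117 in a fit of these 2 groups alone). *SPINK4*, below the mean level required for the fit, was listed at 0 in control tumors 2 and 3 and at 0.0538 RPKM in control tumor 1. It was at 2.40, 0.754, 0.549 and 0.405 RPKM in HNF4G-KO tumors, all higher than the controls. A two-sided exact permutation test of log2(RPKM + 1) gave p = 0.0571, the smallest value possible with 4 against 3 mice.

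Of the 4 called genes, only *AGR3* was called in each of the 7 fits that left out 1 mouse, with adjusted p between 0.00892 and 0.0265. *TFF1* (log2 fold change 2.57 to 2.99) was called in 1 of these fits, without HNF4G-KO tumor 2, *AGR2* (0.68 to 0.81) in 1, without HNF4G-KO tumor 4, and *CTSE* (1.26 to 1.62) in none, so that leaving out each of the other libraries in turn ended these calls. Their adjusted p was at most 0.0831, 0.0999 and 0.122, in that order.

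Mouse reads can align to human genes, and markers of host cells differed between the groups. The summed level of 24 pancreatic acinar markers was between 147 and 2254 RPKM in controls, where 9 to 21 of the markers were at 1 RPKM or more, and between 46.3 and 116 RPKM in HNF4G-KO tumors (1 to 12 markers). Of the acinar markers, *RNASE1* was between 25.9 and 480 RPKM in the 21 libraries, with its maximum in FOXA1-OE tumor 3. Where only 1 acinar marker reached 1 RPKM, it was *RNASE1*. The summed level of 15 stromal markers was between 99.9 and 235 RPKM in controls and between 66.2 and 90.7 RPKM in HNF4G-KO tumors, with 7 or 8 at 1 RPKM or more. With the acinar list as a covariate, *TFF1* (3.32, adjusted p = 0.0362) and *AGR3* (2.39, adjusted p = 0.0157) passed the threshold and *AGR2* (adjusted p = 0.0708) and *CTSE* (0.0944) did not. With the stromal list, *AGR2*, *AGR3* and *CTSE* passed and *TFF1* did not (2.26, adjusted p = 0.0653). In bulk tissue, fewer cells that express a gene and less RNA per cell cannot be told apart.

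The second comparison was that of the *FOXA1* vector alone. None of the 8 genes was called between FOXA1-OE tumors and controls, and 0% of all genes were (0 of 14269 in limma, of which 652 had an unadjusted p under 0.05). *AGR2* was at 475, 494 and 552 RPKM in FOXA1-OE tumors, within the range of the controls or just above it. Its log2 difference was 0.05, with a 95% interval from -0.37 to 0.47. *AGR3* was higher in all 3 FOXA1-OE tumors, at 13.1, 15.6 and 11.5 RPKM, than in any control, but by 0.51 only (SE 0.40, adjusted p = 0.840). *TFF1* was at 26.2, 53.7 and 107 RPKM (log2 difference -0.27, SE 0.75) and *REG4* at 2.07, 11.4 and 40.2 RPKM (-1.21, SE 1.16). In both genes FOXA1-OE tumor 3, the library whose *FOXA1* mRNA was near the control level, was the highest of its group. That tumor was also the highest for *TFF2* (153 RPKM, against 60.1 and 39.9), *TFF3* (21.5, against 7.80 and 14.1) and *SPINK1* (6.36, against 3.16 and 1.52), but not for *AGR3* or *CTSE* (12.9, against 11.5 and 41.6). It stood apart in more than *FOXA1*. *HNF4G* was at 0.495 RPKM, against 3.04 and 2.26, and 15 acinar markers of the host were at 1 RPKM or more, against 3 and 4. Its correlation with the other libraries of its group (r = 0.904) was the lowest of the 21 libraries. Tumor 5 labeled HNF4G-KO + FOXA1-OE, the highest library for *TFF1*, *TFF2* and *TFF3*, was nearly as low (r = 0.906). The part of these values was not tested.

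Tumors with and without the HNF4G-KO label were also compared among those that carry the *FOXA1* vector. This comparison shares no sample with that of HNF4G-KO and control, but they are not independent. Both were taken from the single fit of all tumor groups and share its estimate of spread (SE 0.70 for *TFF1* in each). The knockout cells are described as a pool of 3 clones. The part of these clones in differences seen in both comparisons was not tested. *REG4*, *SPINK1* and *CTSE* rose in HNF4G-KO + FOXA1-OE tumors against FOXA1-OE tumors, 3 of 8 genes, where 3.32% of all genes were called higher. The values per mouse did not overlap for 3 of 8 genes (*AGR2*, *REG4* and *SPINK1*), against 5.39% of all genes.

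*SPINK1* was at 45.3, 12.03, 15.1, 10.3 and 18.8 RPKM in HNF4G-KO + FOXA1-OE tumors 1 to 5, each above the highest FOXA1-OE tumor. The log2 fold change was 2.21 (SE 0.46, adjusted p = 0.0105), or 4.63-fold, and it was called in all 7 fits without 1 mouse. In a fit of these 2 groups alone, which had fewer mice, the calls of *SPINK1* (adjusted p = 0.104), *REG4* (0.0900) and *CTSE* (0.224) were lost. The same tumors held *SPINK1* above controls by 1.79 (SE 0.46, adjusted p = 0.0399), the single call among the 8 genes in that comparison, where 2.14% of all genes were called higher. That call was kept in 2 of the 7 fits without 1 mouse (without tumors 2 and 3 of 1 mouse, and without tumor 4) and ended without each of the other 5, with adjusted p up to 0.147, and it ended with the acinar (adjusted p = 0.0605) or the stromal list (0.105) as a covariate.

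*REG4* was at 388, 253, 18.9, 117 and 238 RPKM in HNF4G-KO + FOXA1-OE tumors 1 to 5. Tumor 3 was the exception, below the highest FOXA1-OE tumor (40.2 RPKM), while the other 4 tumors were well above it. The log2 fold change was 3.85 (SE 1.09, adjusted p = 0.0456), or 14.4-fold. *CTSE* was at 77.9, 121, 6.45, 63.8 and 55.0 RPKM, with tumor 3 again below all FOXA1-OE tumors (11.5, 41.6 and 12.9 RPKM). It rose by 1.47 on the log2 scale (SE 0.42, adjusted p = 0.0457), or 2.78-fold. Both calls were kept in 2 of 7 fits without 1 mouse. *REG4* kept its call without the mouse of tumors 2 and 3 and without FOXA1-OE tumor 3, and lost it without each of the others (adjusted p up to 0.176), while *CTSE* kept it without the mouse of tumors 2 and 3 and without FOXA1-OE tumor 2 (adjusted p up to 0.171 without the others).

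*TFF1* was at 547, 493.3, 6.01, 232 and 798 RPKM in HNF4G-KO + FOXA1-OE tumors 1 to 5. All except tumor 3 were above the FOXA1-OE tumors, and the change of 2.35 (SE 0.70, adjusted p = 0.0559) narrowly missed the threshold. *AGR3* was at 35.0, 26.6, 1.52, 23.5 and 27.2 RPKM (0.58, SE 0.37, adjusted p = 0.378) and *AGR2* at 796, 869, 391, 592 and 636 RPKM (0.35, adjusted p = 0.262). *TFF2* (154, 68.1, 3.19, 80.2 and 222 RPKM) and *TFF3* (16.4, 10.1, 0.270, 20.4 and 42.5 RPKM) overlapped with FOXA1-OE tumors, with log2 differences of 0.19 and 0.12. *SPINK4* was at 3.17, 0.866, 0.0536, 1.30 and 0.841 RPKM, against 0, 0.0598 and 0.232 RPKM in FOXA1-OE tumors. Its values per mouse did not overlap (exact permutation test, two-sided, p = 0.0571, the smallest possible).

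Acinar markers summed to between 196 and 699 RPKM in FOXA1-OE tumors, where 3 to 15 of 24 were at 1 RPKM or more. The highest sum, in FOXA1-OE tumor 3, included 480 RPKM of *RNASE1*. In HNF4G-KO + FOXA1-OE tumors acinar markers summed to between 27.5 and 241 RPKM (1 to 14 markers). Stromal markers summed to between 66.3 and 190 RPKM in FOXA1-OE tumors and to between 66.1 and 142 RPKM in HNF4G-KO + FOXA1-OE tumors. With the acinar list as a covariate *TFF1* passed the threshold (adjusted p = 0.0454) and *CTSE* did not (0.0567). With the stromal list *TFF1* passed as well (adjusted p = 0.0461).

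**Figure D2:**
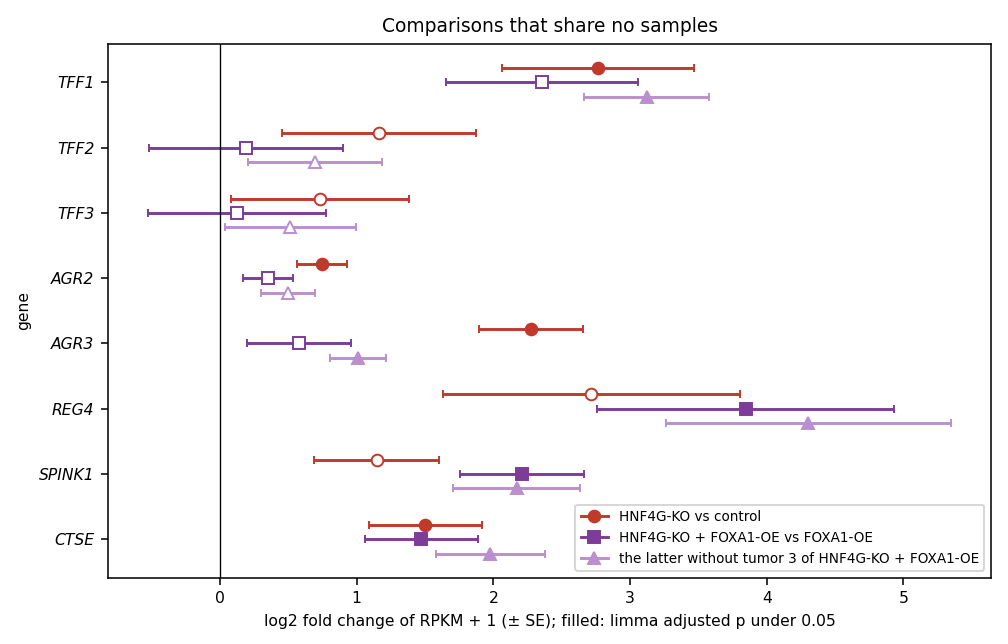
Log2 fold change of RPKM + 1, with its SE, of the 8 tested genes in HNF4G-KO against control tumors and in HNF4G-KO + FOXA1-OE against FOXA1-OE tumors, the latter with and without tumor 3. Filled symbols have a limma adjusted p under 0.05. *TFF1* and *AGR3* are open with tumor 3 and filled without it.

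Tumors 2 and 3 labeled HNF4G-KO + FOXA1-OE came from the same mouse but differed widely in these genes. *TFF1* was 82.1-fold lower in tumor 3 (6.01 against 493.3 RPKM), *TFF3* 37.5-fold, *TFF2* 21.4-fold, *CTSE* 18.7-fold, *AGR3* 17.5-fold, *REG4* 13.4-fold and *AGR2* 2.22-fold. *SPINK1* was the exception, at 15.1 RPKM in tumor 3 and 12.03 RPKM in tumor 2. As log2(RPKM + 1), 8 of the 9 detected genes were lower in tumor 3, with a median difference of -3.45, against 0.10 over 14229 genes. A difference of more than 1 downward was seen in 77.8% of the 9 genes and in 1.72% of all genes. Both values are descriptions of 2 libraries, with no replicate of tumor 3.

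Related genes moved less between these tumors. Of 19 tested gastric mucous cell genes 17 were lower in tumor 3, with a median of -0.88, and of 14 other classical subtype genes 12 (median -0.62). Of 12 goblet cell genes 11 were lower (median -0.34), while 5664 of all 14229 genes were lower. A difference of more than 1 downward was seen in 42.1% of the gastric, 35.7% of the classical and 25.0% of the goblet cell genes. The medians of 28 genes of ER protein folding (0.17) and 21 basal-like genes (0.01) were closer to that of all genes. The 9 epithelial markers summed to 3613 RPKM in tumor 3 and 2894 RPKM in tumor 2, acinar markers to 27.5 and 47.5 RPKM (1 marker at 1 RPKM or more in each), and stromal markers to 138 and 73.3 RPKM. *FOXA1* was at 23.2 RPKM in tumor 3, the highest of all libraries, and at 5.76 RPKM in tumor 2. The share of mitochondrial genes in all RPKM was 33.4% in tumor 3 and 52.8% in tumor 2. The part of these values in the difference was not tested.

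**Figure D3:**
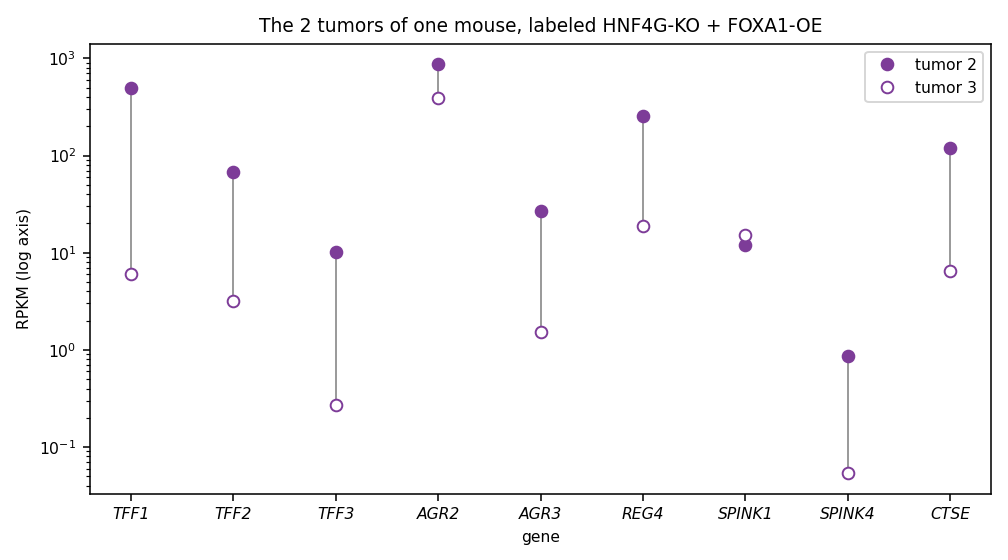
RPKM (log axis) of 9 genes in tumor 2 and tumor 3 of the same mouse, labeled HNF4G-KO + FOXA1-OE, with a line joining the values of each gene. Tumor 3 is lower for 8 genes, by 2.22-fold in *AGR2* and 82.1-fold in *TFF1*, and slightly higher for *SPINK1*.

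The results were computed again without tumor 3, keeping tumor 2 of its mouse, a choice made after these values were seen. Against FOXA1-OE tumors 5 genes were then called instead of 3. These were *TFF1* (log2 fold change 3.12, adjusted p = 0.00145), *AGR3* (1.01, 0.00814), *CTSE* (1.98, 0.00835), *SPINK1* (2.17, 0.0121) and *REG4* (4.31, 0.0233), while *AGR2* was not (0.50, 0.145). Against control 4 genes were called instead of 1, namely *AGR3* (1.52, adjusted p = 0.00161), *TFF1* (2.85, 0.00393), *SPINK1* (1.75, 0.0426) and *CTSE* (1.48, 0.0453). With tumor 3 included, the changes against control were 2.08 for *TFF1* (adjusted p = 0.114), 1.09 for *AGR3* (0.125), 0.97 for *CTSE* (0.217), 2.63 for *REG4* (0.199) and 0.40 for *AGR2* (0.245).

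No difference was called with the *FOXA1* vector among tumors labeled HNF4G-KO. Between HNF4G-KO + FOXA1-OE and HNF4G-KO tumors none of the 8 genes was called, and 0.0561% of all genes were (in limma, 2894 genes had an unadjusted p under 0.05). *AGR3* came closest, with a mean of 23.3 ± 11.7 RPKM (SD, n = 4 mice) against 48.5 ± 10.7 RPKM (SD, n = 4 mice) in HNF4G-KO tumors, and a log2 difference of -1.18 (SE 0.35, adjusted p = 0.196). Without tumor 3 the difference was -0.75 (adjusted p = 0.278). For *TFF1* the means were 409 ± 329 and 460 ± 142 RPKM (SD, n = 4 mice each), and for *REG4* 203 ± 142 and 186 ± 70.5 RPKM. The differences of -0.68 and -0.09 had adjusted p of 0.514 and 0.965, and without tumor 3 both turned to the other side of 0, at 0.09 and 0.37.

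The interaction, which asks whether the difference that goes with the HNF4G-KO label is another with than without the *FOXA1* vector, was called in none of the 8 genes and in 0.035% of all genes (1209 genes had an unadjusted p under 0.05 in limma). The interaction of *AGR3* was -1.70 (SE 0.54, adjusted p = 0.437), the lowest unadjusted p of the 8 genes at 0.00693. That of *CTSE* was -0.03 (95% interval from -1.29 to 1.24), of *TFF1* -0.41 (from -2.54 to 1.72) and of *REG4* 1.13 (from -2.17 to 4.43). With such intervals, differences of severalfold between the 2 settings in *TFF1* or *REG4* could be missed.

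Ordered by mean level over mice, control and FOXA1-OE tumors were below both groups labeled HNF4G-KO for all 8 genes. The share of all genes with that order was not counted, so that it is a description only. For *TFF2* and *TFF3* it rests on log2 differences of 0.19 and 0.12 between HNF4G-KO + FOXA1-OE and FOXA1-OE tumors, which overlapped. *TFF1* stood at 62.4 ± 41.3 RPKM in FOXA1-OE, 66.6 ± 19.8 in control, 409 ± 329 in HNF4G-KO + FOXA1-OE and 460 ± 142 in HNF4G-KO tumors (SD over mice). *CTSE* stood at 22.02 ± 17.0, 26.7 ± 2.82, 56.5 ± 20.5 and 81.1 ± 31.6 RPKM in the same order. Within the lower and the higher pair of groups no gene was called. Across them, control and HNF4G-KO + FOXA1-OE tumors passed the test for *SPINK1* alone, and FOXA1-OE and HNF4G-KO + FOXA1-OE tumors for *REG4*, *SPINK1* and *CTSE*. *AGR3* had the order control (9.06 ± 1.17 RPKM), FOXA1-OE (13.4 ± 2.06), HNF4G-KO + FOXA1-OE (23.3 ± 11.7) and HNF4G-KO (48.5 ± 10.7), none of its neighbors passing a test. *TFF2* and *TFF3* had means of 66.4 to 141 RPKM and 10.1 to 20.5 RPKM, and no tested pair of groups passed in the fit of 4 groups. HNF4G-KO and FOXA1-OE tumors were not tested against each other.

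Metastases were compared with primary tumors of the same genotype, in a fit of 6 groups over 14229 genes in which *SPINK4* reached the level required. None of the 9 genes was called in HNF4G-KO mice (0.0562% of all genes were), in HNF4G-KO + FOXA1-OE mice (0.0281%) or over both genotypes (0.148%). Unadjusted p-values under 0.05 were found in limma for 1755, 1133 and 1111 of all genes. In the 4 mice that had both a tumor and a metastasis library, the direction was shared by all mice for 4 genes: *TFF2* and *TFF3* were lower, and *SPINK4* and *CTSE* higher, in the metastasis. Of all 14229 genes, 12.3% were lower and 7.15% higher in all 4 mice. *SPINK4* passed the filter only because metastases, where its level was higher, were included. Its direction can thus not be set against these shares.

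*TFF3* was at 7.11 and 4.44 RPKM in HNF4G-KO metastases 1 and 2, below all 4 primary tumors. In HNF4G-KO + FOXA1-OE metastases 1 to 4 it was at 1.22, 2.44, 5.55 and 5.12 RPKM. Of the primary tumors of that genotype only tumor 3 was lower. Over both genotypes the log2 difference was -1.54 (SE 0.47, adjusted p = 0.303), and within mice it was between -2.65 and -0.94. *TFF2* was at 48.8 and 44.5 RPKM in HNF4G-KO metastases, again below all primary tumors, and at 35.9, 44.7, 50.1 and 53.6 RPKM in those of HNF4G-KO + FOXA1-OE. Its levels were thus much alike in all 6 metastases, whereas primary tumors of these groups ranged from 68.1 to 222 RPKM, with tumor 3 of HNF4G-KO + FOXA1-OE apart at 3.19 RPKM. The difference was -1.16 (SE 0.48, adjusted p = 0.527), and within mice between -1.92 and -0.57.

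*TFF1* was at 323 and 106 RPKM in HNF4G-KO metastases and at 173, 183, 225 and 303 RPKM in HNF4G-KO + FOXA1-OE metastases. It was lower than in the tumor of the same mouse in 3 of 4 mice, and the difference over both genotypes was -0.77 (SE 0.51, adjusted p = 0.790). With *TFF2* and *TFF3*, it was lower without overlap in HNF4G-KO metastases, in a comparison of 2 with 4 mice where 20.8% of all genes were. Without tumor 3 the difference over both genotypes was -1.73 for *TFF3* (adjusted p = 0.0787) and -1.41 for *TFF2* (0.143). *TFF3* passed the threshold in 1 of the 13 fits without 1 mouse or library, that without the mouse of HNF4G-KO + FOXA1-OE tumors 2 and 3 (adjusted p = 0.0370).

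*SPINK4* was at 8.62 and 1.495 RPKM in HNF4G-KO metastases 1 and 2 and at 3.71, 9.85, 0.646 and 4.36 RPKM in HNF4G-KO + FOXA1-OE metastases 1 to 4. Within mice it was higher by 0.78 to 2.46 on the log2(RPKM + 1) scale than in the tumor, and the difference over both genotypes was 1.10 (SE 0.37, adjusted p = 0.383). *CTSE* was at 114 and 100.2 RPKM in HNF4G-KO metastases and at 114, 73.3, 64.4 and 185 RPKM in the others. It was higher in the metastasis by 0.23 to 1.52 within mice, and by 0.70 over both genotypes (SE 0.32, adjusted p = 0.621). Metastases and tumors overlapped in both genes.

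*SPINK1* was at 20.7 and 1.44 RPKM in HNF4G-KO metastases 1 and 2, at opposite ends of the range of that genotype. In HNF4G-KO + FOXA1-OE it was at 5.91, 11.7, 2.55 and 4.24 RPKM in metastases and between 10.3 and 45.3 RPKM in tumors. The difference over both genotypes was -1.31 (SE 0.46, adjusted p = 0.401), -2.09 (adjusted p = 0.0238) without HNF4G-KO metastasis 1, -0.52 (0.799) without HNF4G-KO metastasis 2 and -0.18 (0.896) with the stromal list as a covariate. *AGR3* was at 40.7 and 25.5 RPKM in HNF4G-KO metastases, and at 14.6, 9.86, 41.9 and 35.0 RPKM in those of HNF4G-KO + FOXA1-OE, where metastases 1 and 2, of the same mouse, were the lowest. *REG4*, at 187, 42.5, 193, 180, 117 and 325 RPKM in the 6 metastases, was lower than in the tumor in 2 mice and higher in 2.

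*AGR2* was at 950 and 724 RPKM in HNF4G-KO metastases and at 648, 588, 655 and 860 RPKM in HNF4G-KO + FOXA1-OE metastases. Its differences within mice were small, between -0.37 and 0.54, and the 95% interval over both genotypes was from -0.23 to 0.37. Stromal markers summed to between 90.3 and 493.3 RPKM in HNF4G-KO metastases and to between 91.6 and 250 RPKM in those of HNF4G-KO + FOXA1-OE, against 66.2 to 90.7 RPKM and 66.1 to 142 RPKM in tumors. Acinar markers summed to at most 125 and 66.4 RPKM in the metastases, in each of which 1 of the 24, *RNASE1*, was at 1 RPKM or more. With either list as a covariate, none of the 9 genes was called. The 9 markers of fat summed to between 44.8 and 92.4 RPKM in metastases and to between 53.5 and 102 RPKM in tumors of these genotypes, nearly all from *CIDEC*, *PPARG* and *CFD*, with *ADIPOQ* at most 0.0108 RPKM. The 13 markers of blood and spleen summed to between 521 and 738 RPKM and to between 148 and 749 RPKM, nearly all from *LYZ*, which is also on the lists of gastric and classical genes, with *PTPRC* at most 0.331 RPKM.

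**Figure D4:**
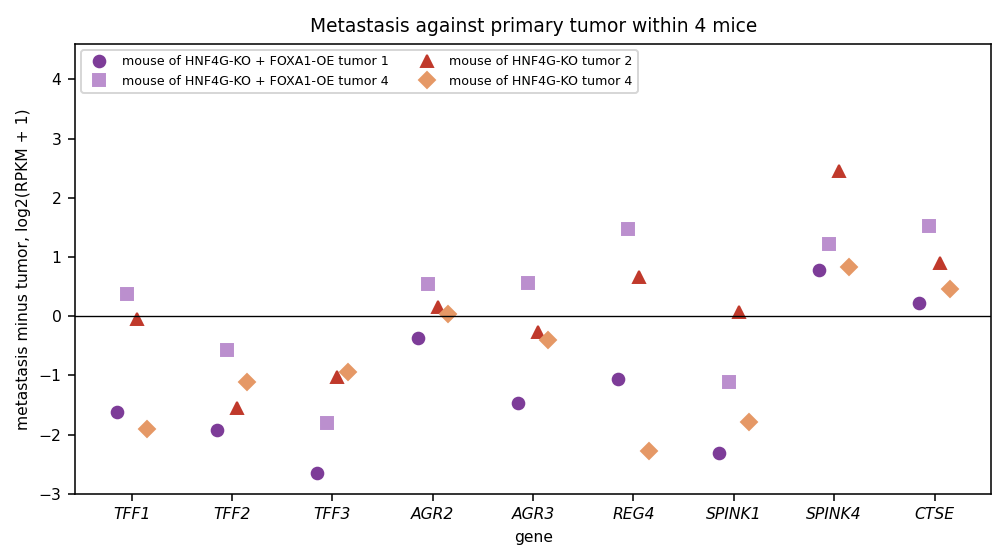
Metastasis minus primary tumor of the same mouse, as a difference in log2(RPKM + 1), for 9 genes in 4 mice, 1 symbol a mouse. *TFF2* and *TFF3* lie below 0 and *SPINK4* and *CTSE* above 0 in all 4 mice.

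The trefoil genes varied together between mice. Over the 14 tumor mice, with the group means removed, Pearson's r of log2(RPKM + 1) was 0.88 between *TFF1* and *TFF2*, 0.89 between *TFF1* and *TFF3* and 0.89 between *TFF2* and *TFF3*. Without tumor 3 labeled HNF4G-KO + FOXA1-OE these were 0.64, 0.63 and 0.76. The neighbors *AGR2* and *AGR3* had 0.48, and 0.31 without tumor 3, and *TFF1* and *AGR3* had 0.72, and 0.11 without it. *SPINK1* and *CTSE* had -0.07, and -0.32 without tumor 3. These values describe mice that share depth and tissue makeup within a library.

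The genes most like each of the 8 over the 14 tumor mice, by Pearson's r with no means removed, differed from gene to gene. They were *NXF3* (0.92) and *GALNS* (0.92) for *TFF1*, *SMIM6* (0.83) and *LINC03040* (0.83) for *TFF2*, and *FAAH* (0.84) and *ACBD4* (0.83) for *TFF3*. *AGR2* was most like *CLDN18* (0.93) and *HYAL1* (0.92), and *AGR3* like ENSG00000280106 (0.91) and *LINC03040* (0.90). *REG4* was most like *HEPH* (0.93) and *PHGR1* (0.92), *SPINK1* like *CCK* (0.94) and *APOD* (0.93), and *CTSE* like *ASPHD2* (0.93) and ENSG00000267344 (0.93). Only *LINC03040* stood among the 3 most alike for more than 1 of the 8 genes.

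Other genes of the classical program changed in the same comparisons. Their lists were also chosen with earlier results of these data known, so that counts from them are descriptions. The lists overlap, with *VSIG2* and *ANXA10* on the classical and the gastric list, *ST6GALNAC1* on the classical and the goblet list, and *CREB3L1* on the goblet and the ER list, so that their counts are not separate. In HNF4G-KO against control tumors, 9 of 14 tested classical subtype genes were higher and 0 lower, with a median log2 fold change of 1.22. They included *VSIG2* (2.87, adjusted p = 0.000594), *CDH17*, a cadherin of intestinal epithelium (2.05, 0.00324), *CEACAM6*, a cell surface adhesion protein (2.00, 0.00241), and *MYO1A*, a myosin of the brush border (1.97, 0.00067). Of 19 gastric mucous cell genes 5 were higher and 0 lower, with *CLDN18*, a tight junction protein of the stomach, the most changed (3.17, adjusted p = 0.000318), and *CAPN9*, a calpain of gastric surface cells (1.51, 0.00761). Of 12 goblet cell genes 4 were higher, among them *BCAS1* (2.25, adjusted p = 0.000654), and 1 lower, the kallikrein gene *KLK1* (-1.04, 0.0447).

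The ER folding genes with which the isomerases work did not move in 1 direction. Of 28 tested, 2 were higher and 3 lower, with a median of 0.03, where 6.18% of all genes were higher and 5.99% lower. *CREB3L1*, a transcription factor of secretory cells, was higher by 1.61 (adjusted p = 0.0139), and *KDELR1*, a receptor that returns ER proteins, lower by 0.70 (log2 fold change -0.70, adjusted p = 0.0308). None of 5 tested family relatives (cathepsin D and others) and none of 9 tested binding partners (such as *LYPD3* and *DAG1*, reported receptors of AGR2) was called in any tumor comparison. Of 21 basal-like genes 2 were higher (*SPRR3* and *UCA1*) and 1 lower (*CST6*), shares near those of all genes.

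In HNF4G-KO + FOXA1-OE against FOXA1-OE tumors, 8 of the 14 classical genes were higher and 0 lower, with a median of 1.20, led by *MYO1A* (3.12, adjusted p = 4.06e-05) and *CDH17* (2.87, 0.000464). Of all genes 3.32% were higher and 4.54% lower. Gastric genes moved both ways, 5 of 19 higher and 2 lower. *PSCA*, a surface antigen, was higher by 2.80 (adjusted p = 0.0121), and the water channel gene *AQP5* (-2.24, 0.0078) and *SOX2*, a transcription factor of the stomach (-2.09, 0.0153), were lower. Of 21 basal-like genes 7 were higher and 0 lower, with *LY6D* the most changed (4.07, adjusted p = 0.00121), so that genes of both subtypes were among those called. *CLDN18* was lower in HNF4G-KO + FOXA1-OE than in HNF4G-KO tumors (-1.98, adjusted p = 0.0422), the single gene of these lists called in that comparison. That call was lost with a pseudocount of 0.1, with scaling of samples, in a fit of 2 groups, with the acinar list as a covariate, with each HNF4G-KO tumor or HNF4G-KO + FOXA1-OE tumor 1 left out in turn and without tumor 3, since no gene at all was then called. No gene of the lists was called between FOXA1-OE tumors and control, in the interaction or in metastases.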

How the data were processed

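RNA sequencing libraries of 21 HPAF-II tumors and metastases were used. Per the methods of the study, 50-base single-end reads were aligned with STAR 2.6.1a, and the processing notes also name featureCounts 2.0.4. The authors deposited RPKM values (reads scaled to gene length and library depth), without read numbers. A step that removes mouse reads is not given in the sources used here. Methods name GRCh37 and processing notes hg38, and coordinates given are those of GENCODE 44 (GRCh38). DESeq2, which the authors name, needs counts and was not run. From the deposited RPKM, log2(RPKM + 1) was tested with limma 3.58.1 in R 4.3.3 (lmFit, eBayes with trend), with Benjamini-Hochberg adjustment over all genes at a mean of 1 RPKM or more and a threshold of 0.05. Samples of the same kind from 1 mouse were averaged on the log2 scale, and p-values of the tumor comparisons measure the spread between mice. In the fit with metastases, the tumor and the metastasis of 1 mouse entered as separate samples. Its p-values thus leave out the pairing, and the mouse as a block was an alternative only. SPINK4 was tested by exact permutation. The RPKM steps between low values gave the depth. The fit was tested on simulated data. Of 200 genes given a log2 change of 2 between HNF4G-KO and control, 185 were called among 14269, and 9 unchanged genes were called too. The simulated spread was drawn for each gene apart, without effects shared by a library, and smaller changes were not simulated. Members and gene lists were chosen with earlier results of these data known. All members are named, with the 3 most correlated genes of each (at least 2 of which are printed) and listed genes past the threshold. Metastases and tumors were paired by animal in 4 mice (correlations of deviations 0.25, 0.30, 0.27 and -0.03). Alternatives were another pseudocount, no filter, scaling of samples, fits of 2 groups, separate libraries, replicate blocks, host lists as covariates and each mouse or library left out. Python 3.11.15, pandas 2.3.3, numpy 2.4.6, scipy 1.17.1 and matplotlib 3.10.9 were used.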

Additional observations from a re-analysis of the deposited data

Results flagged for a closer look

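In the 9 detected genes and the groups of 4 or 5 libraries, 27 sets of values were searched for a library far from the others by Dixon's test. There were 3, all the lowest value of the same library, tumor 3 labeled HNF4G-KO + FOXA1-OE. *TFF1* was at 6.01 RPKM there, while the nearest of the other 4 tumors had 232 RPKM (gap over range 0.740). *AGR3* was at 1.52 RPKM, with 23.5 RPKM in the nearest tumor (0.854), and *CTSE* at 6.45 RPKM, with 55.0 RPKM in the nearest (0.722). Such a test marks some sets by chance, at its level of 0.05. The sets are not independent, since the genes were measured in the same libraries. A second tumor of the same mouse did not share these values.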

How the results depend on the processing

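Over all alternatives, 70 of 1162 values that were not called changed sign, and 0 called values did. The number of the 8 genes called in HNF4G-KO against control was 4, and 1 with no RPKM filter or with every library as a separate sample, 2 with the acinar list as a covariate, 1 to 2 with 1 mouse left out, and 6 in a fit of 2 groups, where *TFF2* and *SPINK1* were gained. In HNF4G-KO + FOXA1-OE against control it was 1, and 0 with no filter, in a fit of 2 groups or with the acinar or stromal list, 0 to 3 with 1 mouse left out, and 4 without tumor 3. In HNF4G-KO + FOXA1-OE against FOXA1-OE it was 3, and 1 with a pseudocount of 0.1, with no filter or with separate libraries, 0 in a fit of 2 groups, 1 to 5 with 1 mouse left out, and 5 without tumor 3. Over both genotypes of metastases it was 0, and 0 to 1 with 1 mouse or library left out. The alternative without tumor 3 was chosen after seeing the data. Where a call was lost without a filter, more genes entered the adjustment, and with a mouse left out, fewer mice did. The cause of the other changes was not tested. Tumor numbers do not mark shared animals, and same-numbered tumors had correlations from -0.27 to 0.63. With the tumor number as a replicate block, 3 genes were called in HNF4G-KO against control (*CTSE* was lost, 1.46, adjusted p = 0.0618) and 1 in HNF4G-KO + FOXA1-OE against FOXA1-OE (*REG4*, 3.46, and *CTSE*, 1.31, were lost, both with adjusted p = 0.157). The mouse as a block called none in metastases. Groups of 2 to 4 mice limit what can be seen, and RPKM gives no counting error for the low genes *SPINK4* and *TFF3*.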
